A study of Mus musculus with 42 samples.

Results

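Membrane phospholipids are edited by lysophospholipid acyltransferases and phospholipases, and the arachidonic acid released from them is the substrate for prostaglandins. The genes described here encode 10 such mouse enzymes: the acyltransferases Lpcat1, Lpcat2, Lpcat3, Lpcat4 and Mboat7, the phospholipase Pla2g4a, the cyclooxygenases Ptgs1 and Ptgs2, and the terminal synthases Ptges and Ptgis. They are 10 of the 55011 genes in the deposited count table and were found there by symbol. The set was chosen from a measured value, the higher Lpcat2 level in regulatory T (Treg) cells labelled as Osm knockout, so that level is given as a description without a test.

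RNA was sequenced from 42 libraries of mouse visceral adipose tissue (VAT) or of cells grown from it, in 15 groups. Stromal cell populations named VmSC4 and VmSC5, all of genotype Pparg-Tdt, were sequenced after fresh sorting (3 libraries each) and after 8 days of adipogenic differentiation (3 libraries each). Cells recovered from Kaeda recipients after adoptive transfer gave 3 groups named for origin and final phenotype: VmSC4-derived VmSC4 (3 libraries), VmSC4-derived VmSC5 (3 libraries) and VmSC5-derived VmSC5 (2 libraries). Floating cells, labelled as adipocytes, came from Pparg-Tdt mice that carried Foxp3-DTR, through which Diphtheria toxin removes Treg cells, and from DTR- littermates; both groups received the toxin, and each has 2 libraries. VmSC5 undergoing adipogenic differentiation were cultured without or with Treg (3 libraries each), where the titles name the cells and the series text speaks of medium conditioned by VAT Treg. In another experiment differentiating VmSC5 received PBS or oncostatin M (OSM), a cytokine of the interleukin-6 family, at 10 ng/mL (3 libraries each). Treg of eVAT came from mice of genotype OSM+/+ (WT) or OSMf/f (KO), with 3 libraries each, and the labels name no Cre. All stromal and floating groups therefore share the Pparg-Tdt allele. Whether replicates came from different animals or wells is not in the labels, and the spread behind each p-value may therefore be technical.

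Total counts per library ranged from 1072147 to 12514783, highest in fresh VmSC4 (11186713 to 12514783) and lowest in the OSM and PBS cultures (1072147 to 2078534). Values are counts scaled to the library total (CPM), and all intervals and limits from counts cover counting error only. Adipoq, the adipocyte hormone, was at 4921 to 5668 CPM in the 8-day VmSC4 cultures and at most at 2.31 CPM in fresh cells. It was also at most at 1.01 CPM in transferred cells, at 243 to 327 CPM in PBS cultures and at most at 3.73 CPM in OSM cultures. In Treg, Osm was at 28.4 to 34.1 CPM in WT and 7.76 to 14.6 CPM in KO, so the groups did not overlap and reads remained in each KO library. Foxp3 was at 294 to 332 CPM in WT and at 154, 359 and 316 CPM in KO replicates 1 to 3. KO replicate 1 stood apart: 8 macrophage marker genes summed to 63.0 CPM there and to 3.59 to 14.9 CPM in the other Treg libraries. Among floating cells, DTR+ replicate 3 stood apart, with Pparg at 12.3 CPM against 241 CPM in replicate 2 and 191 and 242 CPM in the DTR- libraries.

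In the remodelling cycle of phospholipids, named after Lands, a phospholipase A2 removes the fatty acid at the middle position of the glycerol backbone and an acyltransferase attaches another one. Pla2g4a encodes cytosolic phospholipase A2 alpha, which prefers arachidonic acid; the cyclooxygenases COX-1 (Ptgs1, usually constitutive) and COX-2 (Ptgs2, usually induced) turn that acid into prostaglandin H, from which Ptges makes prostaglandin E and Ptgis makes prostacyclin. In adipose tissue prostaglandin E restrains lipolysis, and prostacyclin is known to act on precursors early in adipogenesis.

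Promoter windows of the genes on which the results turn are printed here so that the later values can be read beside them. The sequences are RefSeq's, build GRCm38.p6, from 250 bases before to 50 bases after an annotated start, and windows were found for 9 of the 10 genes, all but Ptgis. Ptgs2 (chr1:150099781-150100080, + strand), Ptgs1 (chr2:36230176-36230475, + strand) and Pla2g4a (chr1:149961241-149961540, - strand) are shown because all 3 genes rose together in cultures with Treg, and Lpcat2 (chr8:92855083-92855382, + strand) because its Treg level led to the choice of the set. Each is written 5′ to 3′ on the strand of its gene, and capitals mark a match, on either strand, to the cyclic-AMP response core TGACGT or the TATA box TATAAA; the STAT-type motif TTCNNNGAA was searched as well.
Ptgs2: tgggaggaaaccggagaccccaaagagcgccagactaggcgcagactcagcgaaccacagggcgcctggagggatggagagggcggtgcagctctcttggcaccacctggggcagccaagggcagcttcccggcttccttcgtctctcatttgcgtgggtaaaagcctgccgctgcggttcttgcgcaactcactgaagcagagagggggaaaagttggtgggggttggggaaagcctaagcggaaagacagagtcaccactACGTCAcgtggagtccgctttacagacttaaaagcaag
Ptgs1: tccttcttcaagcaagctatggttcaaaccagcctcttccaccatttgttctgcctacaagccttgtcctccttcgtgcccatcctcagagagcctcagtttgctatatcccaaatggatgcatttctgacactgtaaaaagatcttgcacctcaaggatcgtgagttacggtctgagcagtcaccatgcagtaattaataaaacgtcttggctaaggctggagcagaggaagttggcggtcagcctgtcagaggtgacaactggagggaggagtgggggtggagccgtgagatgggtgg
Pla2g4a: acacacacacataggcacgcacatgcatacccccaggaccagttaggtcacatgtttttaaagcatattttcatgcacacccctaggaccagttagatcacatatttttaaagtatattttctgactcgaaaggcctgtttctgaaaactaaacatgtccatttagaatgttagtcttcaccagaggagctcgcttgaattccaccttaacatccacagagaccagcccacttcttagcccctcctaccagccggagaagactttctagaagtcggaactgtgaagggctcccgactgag
Lpcat2: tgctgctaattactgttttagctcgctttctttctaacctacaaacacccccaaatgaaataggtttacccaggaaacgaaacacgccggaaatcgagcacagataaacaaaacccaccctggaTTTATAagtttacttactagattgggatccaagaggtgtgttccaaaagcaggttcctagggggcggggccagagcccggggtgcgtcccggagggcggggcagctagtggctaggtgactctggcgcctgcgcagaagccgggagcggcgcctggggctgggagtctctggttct

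The Ptgs2 window held TGACGT on the minus strand, 12 bases after the start. The Lpcat2 window held the letters TATAAA on the minus strand, 126 bases before the start. No motif of these 3 was found in the Ptgs1 window or in the Pla2g4a window shown, and no window of the 9 genes held TTCNNNGAA. Of 32851 mouse promoter windows of the same length, 8.3% held TTCNNNGAA, 7.51% held TGACGT and 13.6% held TATAAA. A match of letters alone therefore does not show binding, and binding was not measured here. The windows also differed in base composition: Ptgs2 had a G+C content of 59.3% with 16 CpG dinucleotides and Lpcat2 54.7% with 15, whereas Ptgs1 had 50.7% with 6 and Pla2g4a 45.3% with 6, against medians of 52.7% and 7 over all windows.

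Levels of different genes were compared as CPM per kilobase of exon. Lpcat3, whose product attaches polyunsaturated fatty acids to lysophosphatidylcholine, was the highest of the 5 acyltransferases by this measure in all 15 groups, from 22.2 per kb in Treg KO to 510.2 ± 28.5 per kb (SD, n = 3) in the 8-day VmSC4 culture. In fresh VmSC4 the 2 terminal synthases led, with Ptgis at 94.0 ± 6.18 per kb and Ptges at 82.1 ± 6.98 per kb, followed by Lpcat3 at 32.7 ± 1.35 per kb (SD, n = 3). The upstream enzymes were far lower there, with Pla2g4a at 3.84 ± 0.532, Ptgs1 at 2.84 ± 0.625 and Ptgs2 at 1.08 ± 0.515 per kb. WT Treg had another order: Lpcat3 at 22.7 ± 4.82, Lpcat1 at 9.34 ± 1.02, Mboat7 at 9.06 ± 0.995 and Lpcat4 at 6.94 ± 1.25 per kb, with Ptgs1 at 3.99 per kb. Ptges was at most at 0.597 CPM and Ptgs2 at 0 counts in all 6 Treg libraries.

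**Figure D1:**
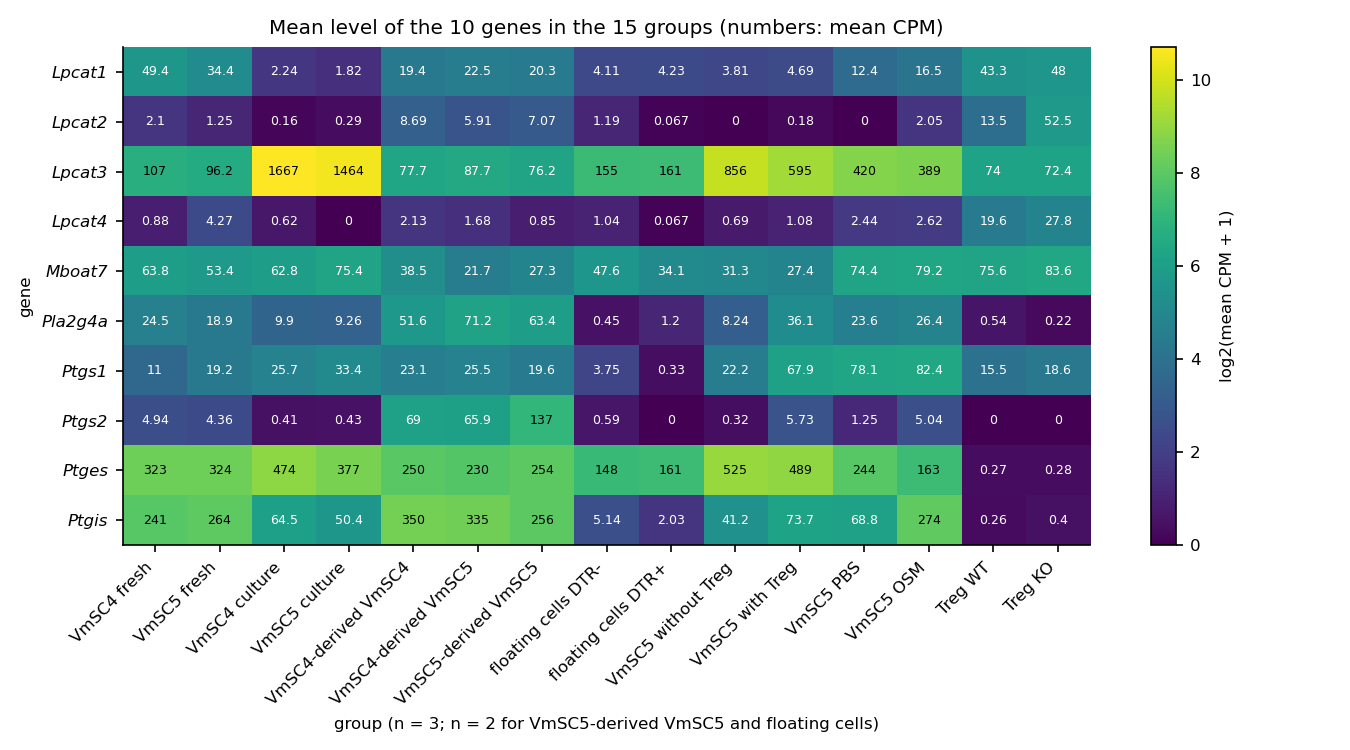
Mean CPM of the 10 genes (rows) in the 15 groups (columns); the printed number is the mean CPM of 2 or 3 libraries and the colour is log2(mean CPM + 1). Lpcat3 stands highest in the 8-day cultures, Ptgs2 in transferred cells, and the prostaglandin synthases Ptges and Ptgis are near 0 in Treg.

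Across the 15 groups ordered by mean CPM, Pla2g4a was highest in VmSC4-derived VmSC5 (71.2 CPM) and lowest in Treg KO (0.221 CPM). Ptgs1 was highest in OSM cultures (82.4 CPM) and lowest in DTR+ floating cells (0.334 CPM), and Ptgs2 was highest in VmSC5-derived VmSC5 (137 CPM), with 3 groups at 0. Ptges was highest in cultures without Treg (525 CPM), and Ptgis in VmSC4-derived VmSC4 (349.9 CPM). Of the acyltransferases, Lpcat1 was highest in fresh VmSC4 (49.4 CPM), Lpcat3 in the VmSC4 culture (1667 CPM), and Lpcat2 (52.5 CPM), Lpcat4 (27.8 CPM) and Mboat7 (83.6 CPM) in Treg KO. Neighbours in these orders often could not be separated: of the 14 neighbouring pairs of groups per gene, the libraries overlapped in 5 pairs for Lpcat3, 8 for Ptges and Ptgis, 9 for Pla2g4a and Ptgs1, 10 for Lpcat2, 11 for Lpcat4 and Ptgs2, and 12 for Lpcat1 and Mboat7. The groups belong to separate experiments that differ in cell number, depth and source, so levels set across experiments are a description.

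Fresh VmSC4 and VmSC5, 2 stromal populations of the same tissue, differed in few of these genes. Lpcat4, an acyltransferase acting on lysophosphatidylethanolamine and lysophosphatidylcholine, was at 0.799, 0.715 and 1.11 CPM in VmSC4 and at 4.22, 4.36 and 4.22 CPM in VmSC5. Every VmSC5 library was above every VmSC4 library, from 8 to 13 counts against 36 to 41 counts. Ptgs1 was at 8.23, 12.2 and 12.7 CPM in VmSC4 and at 16.2, 23.6 and 17.7 CPM in VmSC5, again without overlap. By edgeR's quasi-likelihood test with Benjamini-Hochberg adjustment over all genes tested, Lpcat4 was higher in VmSC5 by a log2 fold change of 2.35 ± 0.49 (SE, adjusted p = 0.0014) and Ptgs1 by 0.89 ± 0.22 (adjusted p = 0.00607). Of the 10 members, all of which were tested, 2 were higher and 0 lower, against 7.41% of all genes higher and 11.0% lower. The Ptgs1 call ended without VmSC5 replicate 2 (0.71, adjusted p = 0.0534), and of all calls 40.3% were higher in VmSC5, or 26.9% with scaling by library totals.

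The 8 other members did not pass. Lpcat1, which makes the saturated phosphatidylcholine of lung surfactant, was at 46.3, 61.1 and 40.8 CPM in VmSC4 and 33.3, 29.1 and 40.9 CPM in VmSC5, with a log2 fold change of -0.43 (edgeR adjusted p = 0.111). Ptges and Ptgis were high in both populations, with Ptges at 293 to 347 CPM in VmSC4 and 317 to 333 CPM in VmSC5, and Ptgis at 225 to 257 CPM and 231 to 304 CPM. Ptgs2 was low in both, at 2.74 to 7.43 CPM and 3.19 to 5.56 CPM. The median log2 fold change of the members was -0.08, beside -0.02 for all genes.

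Of 21 tested genes in a list of other phospholipid remodelling enzymes, 1 was higher and 3 lower in fresh VmSC5. Pla2g7, the secreted enzyme that inactivates platelet-activating factor, was at 8.99 ± 1.71 CPM in VmSC5 and 48.1 ± 12.2 CPM in VmSC4 (SD, n = 3), a log2 fold change of -2.33 ± 0.26 (edgeR adjusted p = 8.3e-07). Among 17 tested eicosanoid enzymes and carriers 0 were higher and 5 lower. Slco2a1, the carrier that takes up prostaglandins, had a log2 fold change of -1.19 ± 0.16, and Hpgd, the dehydrogenase that inactivates them, of -0.56 ± 0.16. Of 7 tested eicosanoid receptors 2 were higher and 1 lower, with Ptgir, the prostacyclin receptor, higher by a log2 fold change of 0.69 ± 0.18. Macrophage genes summed to 10.2 to 25.1 CPM in fresh VmSC4 and 3.81 to 5.53 CPM in fresh VmSC5, and endothelial genes to 8.30 to 21.8 CPM and 2.35 to 3.30 CPM, without overlap; their part in the lower Pla2g7 and Slco2a1 levels of VmSC5 was not tested.

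After 8 days of adipogenic culture 9 of the 10 members were called in each population, 4 higher and 5 lower, in comparisons where most genes were called: 31.9% of all genes were higher and 38.5% lower in the VmSC4 culture, and 33.4% higher and 37.6% lower in the VmSC5 culture. Fibroblast genes summed to 38740 to 44940 CPM in fresh VmSC4 and 1033 to 1264 CPM in its culture, and to 42600 to 44320 and 1326 to 1392 CPM in VmSC5. In VmSC4 adipocyte genes went from 119.7 to 170.3 CPM to 28060 to 30470 CPM, in VmSC5 from 87.7 to 121.1 CPM to 28420 to 29490 CPM, and pericyte and smooth muscle genes from 67.0 to 117.1 CPM to 433 to 604 CPM and from 33.1 to 95.5 CPM to 366 to 500.2 CPM. The part of these shifts in the member results was not tested. Fresh libraries came from 1000 sorted cells and had totals of at least 8527769 counts. Culture libraries came from lysed wells and had totals of at most 2606360 counts. Culture therefore cannot be told apart from sorting, input and depth in these comparisons. Lpcat3 was at 102 to 111 CPM in fresh VmSC4 and at 1713, 1729 and 1560 CPM after culture, and at 91.95 to 99.2 CPM in fresh VmSC5 and 1478, 1531 and 1381 CPM after culture. The cultured libraries stood far above the fresh ones in both populations. The edgeR log2 fold change was 4.51 ± 0.12 in VmSC4 (adjusted p = 3.7e-21) and 4.35 ± 0.12 in VmSC5 (adjusted p = 6.6e-21). Emg1, on the opposite strand, shares 334 exon bases with Lpcat3; it was at 82.5 to 96.3 CPM in fresh VmSC4 and 53.3 to 57.3 CPM in its culture, and at 85.6 to 110.1 and 52.1 to 62.5 CPM in VmSC5, so it was lower in the cultures where Lpcat3 was higher. Without the strand setting of the counting the reads of such overlapping genes cannot be told apart.

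The cyclooxygenase Ptgs1 was at 23.4, 24.9 and 28.9 CPM in the VmSC4 culture and 33.96, 35.7 and 30.5 CPM in the VmSC5 culture, above all fresh libraries of the same population. It rose by a log2 fold change of 1.77 ± 0.22 in VmSC4 (edgeR adjusted p = 1.2e-07) and 1.23 ± 0.21 in VmSC5 (adjusted p = 1.5e-05). The inducible Ptgs2 fell to between 0 and 2 counts in each cultured library: 177 counts in fresh VmSC4 stood against 3 in culture, a ratio of 11.0 by CPM (counting interval 3.70 to 53.8), and 121 against 3 in VmSC5, a ratio of 9.51 (3.18 to 46.8). The adjusted p was 0.00174 in VmSC4 and 0.00244 in VmSC5 (edgeR). Ptgs1 thus made up 97.5 to 100% of the summed per-kilobase level of both cyclooxygenases in the cultured libraries, against 56.6 to 84.5% in fresh VmSC4 and 77.4 to 89.7% in fresh VmSC5.

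The terminal synthases moved in opposite directions. Ptges was at 425, 490.3 and 507 CPM in the VmSC4 culture, all above the fresh range of 293 to 347 CPM, while Ptgis was at 71.1, 59.1 and 63.3 CPM, all below the fresh range of 225 to 257 CPM. Ptges rose by a log2 fold change of 1.10 ± 0.11 in VmSC4 (edgeR adjusted p = 2.8e-09) and 0.64 ± 0.11 in VmSC5 (adjusted p = 1.5e-05), and Ptgis had log2 fold changes of -1.37 ± 0.13 (adjusted p = 1.3e-09) and -1.96 ± 0.14 (adjusted p = 1.5e-12). As a share of their summed level per kilobase, Ptges made up 45.5 to 48.4% in fresh VmSC4 and 79.6 to 84.4% in culture, and 41.04 to 47.3% in fresh VmSC5 and 82.03 to 84.03% in culture. With scaling by library totals the Ptges value in VmSC5 was 0.22 (adjusted p = 0.0756).

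Of the other acyltransferases, Lpcat1 went from 40.8 to 61.1 CPM in fresh VmSC4 to 1.40 to 3.80 CPM in culture, and from 29.1 to 40.9 CPM in fresh VmSC5 to 1.29 to 2.58 CPM. Its log2 fold changes were -3.98 ± 0.33 (edgeR adjusted p = 4.9e-11) and -3.79 ± 0.35 (adjusted p = 3.1e-10). Lpcat4 was at 0 counts in all 3 VmSC5 cultures against 118 counts in fresh VmSC5, at least 9.28-fold lower when 3 counts over the group are taken as the limit (adjusted p = 4.3e-05), and did not pass in VmSC4 (0.01 ± 0.80). Lpcat2, the acyltransferase that also makes platelet-activating factor in inflammatory cells, gave 75 counts in fresh VmSC4 and 1 in culture, a ratio of 13.98 (counting interval 2.43 to 559, adjusted p = 0.0215). In VmSC5 it gave 35 and 2 counts, a ratio of 4.13 (1.06 to 35.4, adjusted p = 0.199). The VmSC4 call of Lpcat2 ended with DESeq2 (adjusted p = 0.0524) and without culture replicate 1 (0.073) or 2 (0.104), and Lpcat2 passed in VmSC5 without culture replicate 1 (0.0428).

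Mboat7, which attaches arachidonic acid to lysophosphatidylinositol, was at 42.9, 77.5 and 67.99 CPM in the VmSC4 culture and at 61.04, 83.5 and 81.8 CPM in the VmSC5 culture. Fresh libraries were at 59.7 to 71.6 CPM and 51.7 to 55.4 CPM, so the groups overlapped in VmSC4 and did not in VmSC5. After scaling the log2 fold change was 0.53 ± 0.17 in VmSC4 (edgeR adjusted p = 0.00841) and 0.92 ± 0.17 in VmSC5 (adjusted p = 4.1e-05). In VmSC4 it was -0.01 (adjusted p = 0.962) with scaling by library totals, and did not pass without a filter on low counts (adjusted p = 0.0688) or without culture replicate 2 (0.168). Pla2g4a was at 9.59 to 10.3 CPM in the VmSC4 culture against 21.4 to 28.2 CPM fresh, a log2 fold change of -0.77 ± 0.23 (adjusted p = 0.00505), and at 8.60 to 10.2 CPM in the VmSC5 culture against 16.2 to 21.4 CPM fresh, -0.61 ± 0.24 (adjusted p = 0.0259). The VmSC5 call of Pla2g4a ended without culture replicate 1 (0.06705) or 2 (0.058) and without fresh replicate 1 (0.0737).

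The median log2 fold change of the 10 members was -0.38 in VmSC4 beside -0.24 for all genes, and -1.09 in VmSC5, also with Lpcat4 at its limit, beside -0.18. Scaling by library totals moved the median of all genes by -0.54 and -0.424, and the share of calls that were higher from 45.3% to 30.0% and from 47.0% to 35.3%. Of 19 other remodelling genes tested, 12 rose and 3 fell in VmSC4 and 13 rose and 3 fell in VmSC5. Pla2g6, a calcium-independent phospholipase A2, rose by log2 fold changes of 4.83 ± 0.16 and 4.36 ± 0.15, and Agpat3, an acyltransferase, by 4.37 ± 0.16 and 4.045 ± 0.16. Of 17 eicosanoid enzymes and carriers 11 rose and 5 fell in VmSC4 and 11 rose and 4 fell in VmSC5, with Ephx2, the soluble epoxide hydrolase, rising by 5.63 ± 0.15 and 5.54 ± 0.15. Of 6 receptors 2 rose and 3 fell in each population: Ptger3, a prostaglandin E receptor, rose by 5.38 ± 0.28 and 4.13 ± 0.27, and Ptgir had log2 fold changes of -2.50 ± 0.28 and -3.94 ± 0.30 (edgeR).

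The 2 cultures themselves differed in 0 members, with 4 at an unadjusted p under 0.05, where 0.129% of all genes were higher in the VmSC5 culture and 0.212% lower. Ptges was at 357, 397 and 378 CPM in the VmSC5 culture, below all 3 VmSC4 cultures, with a log2 fold change of -0.36 ± 0.11 (edgeR adjusted p = 0.276); DESeq2 called this 1 member (adjusted p = 0.0325), as did a fit of the 2 culture groups alone (0.0294). Ptgis was at 44.3, 56.8 and 50.2 CPM, also below the VmSC4 cultures, with -0.38 ± 0.15 (adjusted p = 0.455). The members' median was -0.18 beside -0.02 for all genes.

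Whether the response to culture differed between the populations was tested as an interaction, which gave 1 member, Lpcat4, where 1.85% of all genes had a more positive response in VmSC5 and 1.01% a more negative one. Lpcat4 had means of 0.876 CPM in fresh VmSC4 (31 counts) and 0.619 CPM in its culture (4 counts), with overlapping libraries. In VmSC5 it was at 4.27 CPM in fresh cells (118 counts) and at 0 counts in culture. The interaction of Lpcat4 had an edgeR adjusted p of 0.0404. Its fitted size rests on a group at 0 and is no measure of the difference. The call ended with a replicate block (adjusted p = 0.05855), without any 1 culture library, without fresh VmSC5 replicate 2 or 3, and without fresh VmSC4 replicate 2 (0.0575 to 0.1325). Ptges and Ptgis had differences of -0.45 ± 0.16 (adjusted p = 0.1215) and -0.60 ± 0.19 (adjusted p = 0.092), and Ptges passed with DESeq2 (-0.49, adjusted p = 0.0159). Of all calls 64.6% were higher, or 80.6% with library totals, which moved the median of all genes by 0.115.

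**Figure D2:**
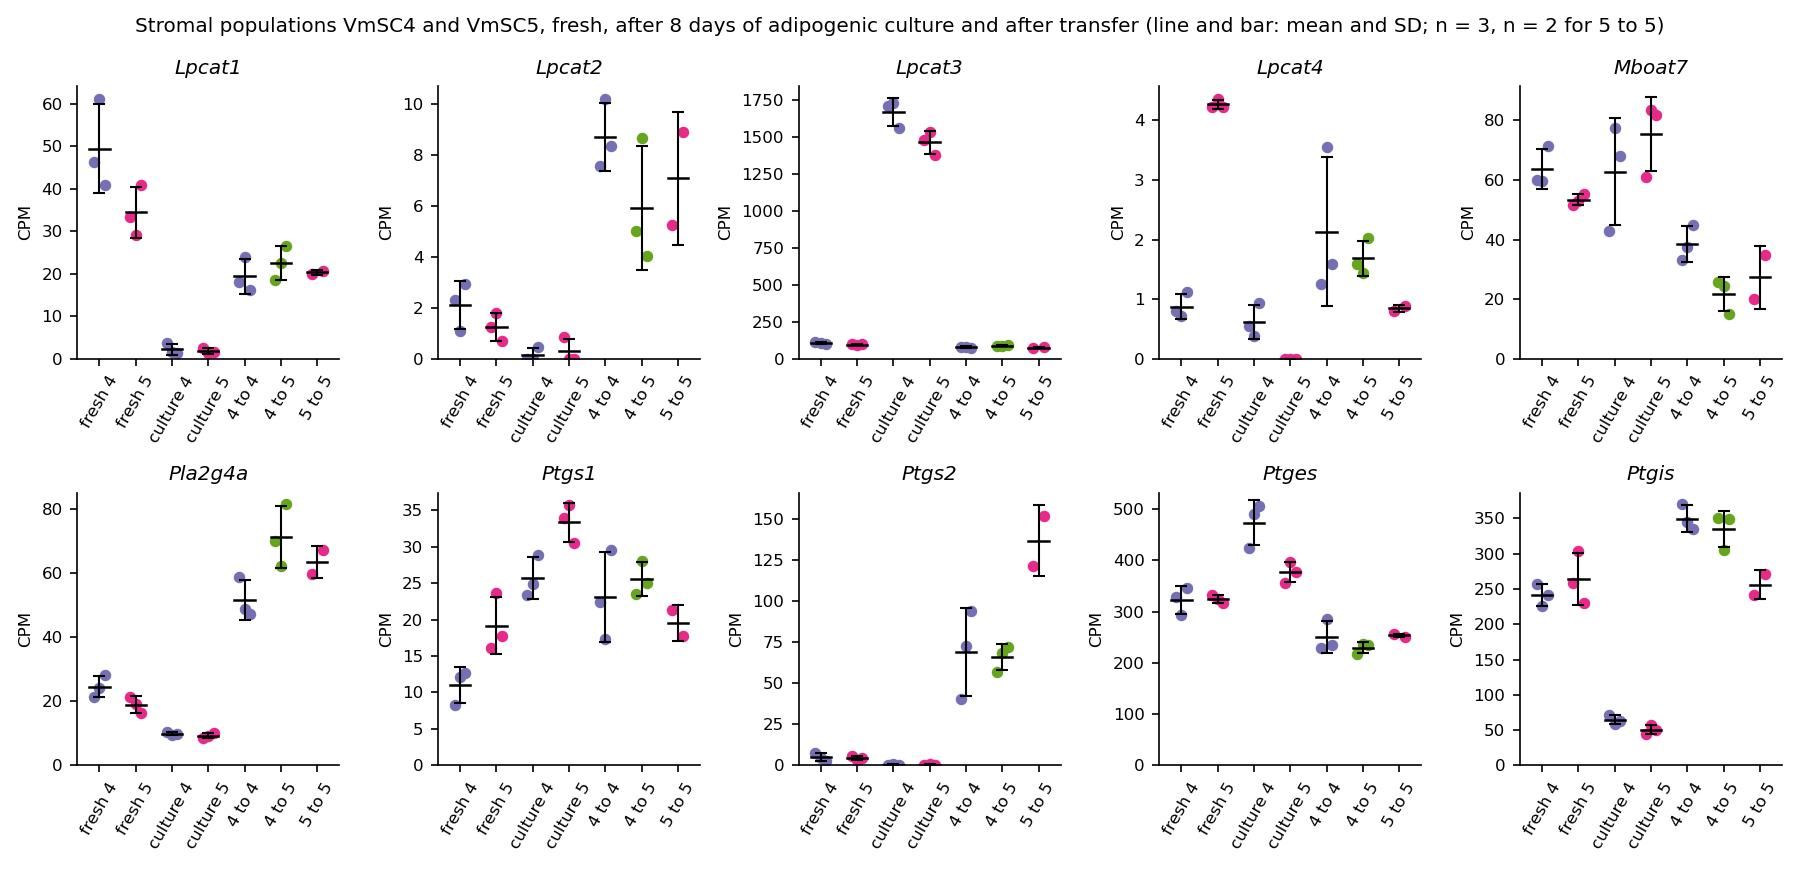
CPM (linear axes from 0, 1 panel per gene) in every library of the fresh, 8-day culture and transferred VmSC4 and VmSC5 groups, where 4 to 5 means VmSC4-derived VmSC5; points are libraries, and the line and bar are the mean and SD (n = 3, n = 2 for 5 to 5). Lpcat3 separates the cultures from all other groups, and Ptgs2 and Pla2g4a separate the transferred cells from the fresh ones.

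Cells recovered after transfer into recipients had more Ptgs2 than fresh cells of the same name. Marker lists differed between these groups as well: from fresh VmSC4 to VmSC4-derived VmSC4, fibroblast genes went from 38740 to 44940 CPM to 124000 to 127800 CPM, adipocyte genes from 119.7 to 170.3 CPM to 21.6 to 51.7 CPM, and the neutrophil and monocyte list from 26.4 to 49.1 CPM to 52.4 to 71.1 CPM. From fresh VmSC5 to VmSC5-derived VmSC5 the same lists went from 42600 to 44320 CPM to 84140 to 85020 CPM, from 87.7 to 121.1 CPM to 31.8 to 51.3 CPM, and from 21.5 to 37.6 CPM to 44.96 to 49.7 CPM, and the part of these shifts in the member results was not tested. Ptgs2 was at 40.6, 72.7 and 93.8 CPM in VmSC4-derived VmSC4 against 2.74 to 7.43 CPM in fresh VmSC4, and at 122 and 152 CPM in VmSC5-derived VmSC5 against 3.19 to 5.56 CPM in fresh VmSC5. No transferred library overlapped the fresh ones. Its log2 fold change was 3.82 ± 0.34 (edgeR adjusted p = 5.7e-07) and 4.91 ± 0.37 (adjusted p = 1e-07). Ptgs1 made up 21.9 to 39.5% of the summed per-kilobase level of the cyclooxygenases in VmSC4-derived VmSC4, 29.0 to 32.7% in VmSC4-derived VmSC5 and 12.1 to 17.15% in VmSC5-derived VmSC5, so Ptgs2 was the more abundant of the pair in these 8 libraries.

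Pla2g4a, upstream of the cyclooxygenases, was at 58.8, 48.8 and 47.2 CPM in VmSC4-derived VmSC4 and at 59.7 and 67.0 CPM in VmSC5-derived VmSC5, above all fresh libraries. It rose by a log2 fold change of 1.10 ± 0.16 (edgeR adjusted p = 6.8e-06) and 1.69 ± 0.18 (adjusted p = 4.4e-08). Lpcat2 was at 7.57, 10.2 and 8.33 CPM against 1.07 to 2.91 CPM in fresh VmSC4, and at 5.23 and 8.90 CPM against 0.704 to 1.81 CPM in fresh VmSC5, without overlap. It rose by 2.04 ± 0.43 (adjusted p = 0.000385) and 2.42 ± 0.49 (adjusted p = 0.000262). Ptgs1 and Ptgis passed in VmSC4 only, by 1.13 ± 0.23 and 0.56 ± 0.11 (adjusted p = 0.000304 and 0.0003075), and had -0.02 ± 0.25 and -0.10 ± 0.13 in VmSC5; the difference between the populations was not tested.

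Most other acyltransferases and Ptges fell. Lpcat1 was at 18.2, 23.9 and 16.1 CPM in VmSC4-derived VmSC4 against at least 40.8 CPM fresh, a log2 fold change of -1.36 ± 0.20 (edgeR adjusted p = 7.2e-06). In VmSC5-derived VmSC5 it was at 19.9 and 20.7 CPM, a log2 fold change of -0.82 ± 0.23 (adjusted p = 0.00451). Mboat7 had -0.69 ± 0.19 and -1.03 ± 0.22 (adjusted p = 0.00498 and 0.000597), Lpcat3 -0.44 ± 0.12 and -0.39 ± 0.13 (0.003135 and 0.0153), and Ptges -0.35 ± 0.11 and -0.41 ± 0.12 (0.00934 and 0.00726). Lpcat4 fell in VmSC5, from 4.22 to 4.36 CPM to 0.805 and 0.890 CPM, by 2.365 ± 0.64 on the log2 scale (adjusted p = 0.00377), and had 1.16 ± 0.56 in VmSC4 (adjusted p = 0.0928). Some of these calls ended when a choice was changed: Ptges in VmSC4 in a fit of the 2 groups alone (0.0557) and without transferred replicate 1 (0.0586), and in VmSC5 without transferred replicate 2 (0.0534), as did Lpcat3 in VmSC5 without either transferred library (0.0895 and 0.06465).

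In all, 5 members rose and 4 fell in VmSC4-derived VmSC4, where 21.4% of all genes rose and 24.7% fell, and 3 rose and 5 fell in VmSC5-derived VmSC5, where 23.9% rose and 22.4% fell. Their medians were 0.83 beside -0.02 for all genes, and -0.25 beside 0.01. Of 21 other remodelling genes 5 rose and 8 fell in VmSC4 and 5 rose and 6 fell in VmSC5. Abhd12, a lysophospholipid lipase, had log2 fold changes of -1.87 ± 0.18 and -1.80 ± 0.20, and Pla2g7 was at 0.752 CPM in VmSC4-derived VmSC4 against 48.1 CPM fresh (-5.82 ± 0.41). Of 17 eicosanoid enzymes and carriers 1 rose and 6 fell in VmSC4 and 1 rose and 4 fell in VmSC5, with Hpgd at -1.38 ± 0.17 and -0.89 ± 0.20. Of 7 receptors 3 rose and 1 fell in VmSC4 and 1 rose and 1 fell in VmSC5; Ptger4, a prostaglandin E receptor, was at 24.1 CPM in VmSC4-derived VmSC4 against 12.6 CPM fresh (0.97 ± 0.25), and Ptgir had -1.26 ± 0.22 in VmSC5 (edgeR). Transferred and fresh cells were separate sorts at different depths, so transfer and sort cannot be told apart.

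Cells that had been VmSC4 when injected and were VmSC5 when recovered had no member past the threshold against either comparison group. Against VmSC4-derived VmSC4, 0 members were called and 3 had an unadjusted p under 0.05, where 0.746% of all genes were higher and 1.03% lower. Mboat7 was at 25.6, 24.4 and 15.2 CPM in VmSC4-derived VmSC5 and at 33.04, 37.6 and 44.8 CPM in VmSC4-derived VmSC4, without overlap, with a log2 fold change of -0.76 ± 0.21 (edgeR adjusted p = 0.058). It passed with library totals (0.0346), DESeq2 (0.0211), no filter (0.00545) and the 2 groups alone (0.0105). Pla2g4a was at 70.0, 62.1 and 81.4 CPM against 47.2 to 58.8 CPM, 0.54 ± 0.16 (adjusted p = 0.08375), and passed in the 2 groups alone (0.0305). The members' median was 0.02 beside 0.04, and of all calls 42.1% were higher, or 20.3% with library totals.

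Against VmSC5-derived VmSC5, again 0 members were called and 3 had an unadjusted p under 0.05, where 0.523% of all genes were higher and 0.624% lower. Ptgs2 was at 57.1, 68.3 and 72.3 CPM in VmSC4-derived VmSC5 against 122 and 152 CPM, with a log2 fold change of -0.98 ± 0.32 (edgeR adjusted p = 0.204), and passed without a filter (7.8e-05) and in the 2 groups alone (4.7e-05). Ptgis was at 350.3, 306 and 349 CPM against 242 and 271 CPM, 0.46 ± 0.13 (adjusted p = 0.0923), and passed with DESeq2 (0.0267) and in the 2 groups alone (0.00544). Neither gene's libraries overlapped between the groups. The members' median was 0.23 beside -0.01, and 45.6% of all calls were higher, or 32.0% with library totals.

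Differentiating VmSC5 cultured with Treg had more Pla2g4a, Ptgs1 and Ptgs2, the phospholipase and both cyclooxygenases among the members, than those cultured without. Pla2g4a was at 9.38, 7.82 and 7.53 CPM without Treg and at 37.2, 36.7 and 34.4 CPM with Treg. Ptgs1 was at 19.8, 20.2 and 26.7 CPM without and 66.4, 66.7 and 70.6 CPM with Treg. Ptgs2 was at 0, 0.307 and 0.645 CPM without (5 counts in all) and at 6.05, 6.81 and 4.32 CPM with Treg (128 counts). In each of these genes every library with Treg was above every library without. By edgeR the log2 fold changes were 4.20 ± 0.49 for Ptgs2 (adjusted p = 5.2e-09), 2.14 ± 0.14 for Pla2g4a (adjusted p = 2.3e-15) and 1.64 ± 0.11 for Ptgs1 (adjusted p = 1.2e-15). Ptgs1 remained the more abundant cyclooxygenase, at 92.03 to 95.1% of the pair's summed level per kilobase with Treg and 97.99 to 100% without.

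Downstream, Ptgis, the prostacyclin synthase, was at 37.5, 41.7 and 44.3 CPM without and 79.2, 69.7 and 72.4 CPM with Treg, a log2 fold change of 0.86 ± 0.09 (edgeR adjusted p = 3e-10). Ptges, the prostaglandin E synthase, was at 527, 517 and 531 CPM without and 467, 488 and 513 CPM with Treg; the libraries with Treg lay just below those without, and the difference did not pass after scaling (-0.09 ± 0.06, 95% interval -0.20 to 0.02, adjusted p = 0.202). The Ptges share of the summed level of both synthases was 88.7 to 90.2% without and 79.4 to 82.2% with Treg. Lpcat3 was the acyltransferase that changed: it was at 882, 861 and 824 CPM without and 574, 595 and 615 CPM with Treg, a log2 fold change of -0.51 ± 0.06 (adjusted p = 7.8e-10). Mboat7 (-0.17 ± 0.13, adjusted p = 0.28) and Lpcat1 (0.30 ± 0.31, adjusted p = 0.463) did not pass, and Lpcat2 and Lpcat4 were too low to test. Lpcat2 gave 0 counts without and 4 with Treg, too few to show a difference.

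Of the 8 tested members 4 rose and 1 fell, where 22.4% of all genes rose and 21.0% fell, and the median was 0.58 beside -0.00 for all genes; the same 5 calls held in each alternative that was run. Markers of other cells and states moved as well: 8 macrophage genes summed to 264 to 310 CPM without and 175 to 208 CPM with Treg, adipocyte genes to 20250 to 22060 and 12550 to 14320 CPM, and fibroblast genes to 3911 to 4556 and 10510 to 12270 CPM. T cell markers summed to at most 0.521 CPM without and 0.556 CPM with Treg, with Cd4 at 0 in both groups and Cd3e at 0 with Treg and at most at 0.347 CPM without. A neutrophil and monocyte list went from 7.67 to 9.38 CPM to 472 to 518.5 CPM, almost all of it Plac8, with S100a9 at 0. The part of these shifts in the member results was not tested, and in such bulk samples fewer cells of a type and less RNA per cell cannot be told apart.

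**Figure D3:**
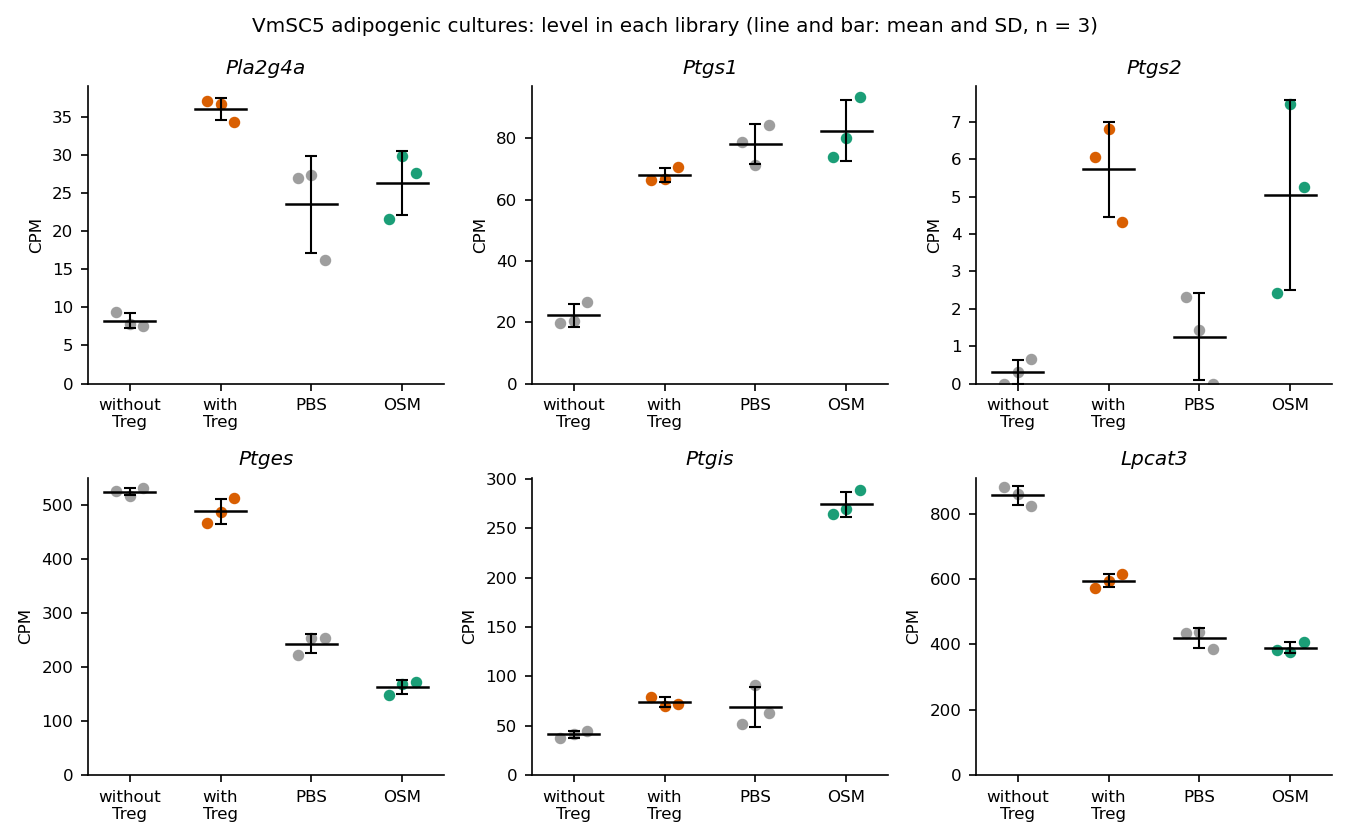
CPM of Pla2g4a, Ptgs1, Ptgs2, Ptges, Ptgis and Lpcat3 in each VmSC5 culture library without Treg, with Treg, with PBS and with OSM; points are libraries, and the line and bar are the mean and SD (n = 3). Pla2g4a, Ptgs1 and Ptgs2 separate the Treg cultures from their controls, while Ptgis shows the largest separation of OSM from PBS among the genes drawn.

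The neighbouring genes of the pathway changed in both directions with Treg. Of 19 other remodelling genes 5 rose and 6 fell; Pla2g6 was at 52.7 ± 4.13 CPM with and 88.04 CPM without Treg (-0.73 ± 0.08), and Tmem86a, a lysoplasmalogenase, fell by 1.21 ± 0.10 on the log2 scale. Of 17 eicosanoid enzymes and carriers 4 rose and 5 fell; the prostaglandin carrier Slco2a1 was at 64.1 ± 3.59 CPM with and 14.1 CPM without Treg, a log2 fold change of 2.19 ± 0.11 (edgeR adjusted p = 2.7e-18), and Ephx1 and Akr1b3 rose by 1.21 ± 0.09 and 0.87 ± 0.07. Of the 4 receptors tested, Ptger4 rose, from 3.35 to 21.3 CPM (2.71 ± 0.24, adjusted p = 2e-10), while Ptger3 and Tbxa2r, the thromboxane receptor, had -0.72 ± 0.11 and -0.44 ± 0.13. Ptgir, named after its value was seen, rose by 0.88 ± 0.25, so that 2 receptors rose and 2 fell.

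OSM given to differentiating VmSC5 raised Ptgis and lowered Ptges. Ptgis was at 51.8, 91.4 and 63.1 CPM with PBS and at 265, 269.6 and 289 CPM with OSM, and Ptges at 223, 254 and 254 CPM with PBS and 148, 168 and 172 CPM with OSM. The groups did not overlap in either gene. The edgeR log2 fold changes were 2.05 ± 0.13 for Ptgis (adjusted p = 1.6e-15) and -0.48 ± 0.10 for Ptges (adjusted p = 0.0001085). Ptges made up 64.5 to 73.7% of the summed per-kilobase level of both synthases with PBS and 26.8 to 28.9% with OSM, so their order was the reverse in the OSM cultures.

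Of the upstream enzymes, Pla2g4a and Ptgs1 did not pass with OSM, and Ptgs2 was too low to test. Pla2g4a was at 27.04, 27.4 and 16.2 CPM with PBS and 21.7, 29.9 and 27.6 CPM with OSM (0.23 ± 0.25, edgeR adjusted p = 0.473), and Ptgs1 at 78.8, 71.2 and 84.4 CPM with PBS and 73.8, 80.2 and 93.3 CPM with OSM (0.20 ± 0.14, adjusted p = 0.26). Their libraries overlapped between the groups. Ptgs2 gave 6 counts with PBS (0 to 2.32 CPM) and 19 with OSM (2.41 to 7.46 CPM). Its libraries did not overlap, but the counts were too few to test. Lpcat3 was at 436, 438 and 385 CPM with PBS and 384, 376 and 409 CPM with OSM (-0.01 ± 0.09, adjusted p = 0.9655), Lpcat1 had 0.51 ± 0.32 (adjusted p = 0.192) and Mboat7 0.19 ± 0.18; Mboat7 passed without OSM replicate 3 (0.45, adjusted p = 0.0138). Lpcat2 gave 0 counts with PBS and 7 with OSM, a ratio of 2.76 with PBS set to 3 counts, and OSM replicate 3 was at 0.

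Of 7 tested members 1 rose and 1 fell, where 22.8% of all genes rose and 23.0% fell, with a median of 0.20 beside 0.00. Marker lists moved strongly between these cultures: adipocyte genes summed to 10900 to 12820 CPM with PBS and 949 to 1400 CPM with OSM, mesothelial genes to 55.4 to 105.8 and 6.42 to 11.2 CPM, fibroblast genes to 10470 to 10890 and 47220 to 57350 CPM, pericyte and smooth muscle genes to 191 to 246 and 921 to 1221 CPM, and endothelial genes to 25.6 to 34.0 and 126 to 169.5 CPM. The neutrophil and monocyte list went from 24.5 to 29.0 CPM with PBS to 656 to 743 CPM with OSM, with S100a8, S100a9 and Csf3r at 0 in both groups, and the mast cell list from at most 0.853 CPM to 32.9 to 44.9 CPM, where Kit alone of its genes was detected with OSM. Macrophage genes overlapped, at 321 to 339 CPM with PBS and 290 to 493 CPM with OSM. Their part in the Ptgis and Ptges results was not tested. Library totals moved the median of all genes by -0.104.

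In the wider pathway, 3 of 16 other remodelling genes rose with OSM and 6 fell. Acsl4, which activates arachidonic acid for esterification, was at 304.5 ± 13.2 CPM with OSM and 53.0 CPM with PBS (2.61 ± 0.12), while Agpat3 and Pla2g12a, a secreted phospholipase A2, had -2.02 ± 0.15 and -2.01 ± 0.27. Of 14 eicosanoid enzymes and carriers 4 rose and 7 fell. Hpgd, which inactivates prostaglandins, was at 1.02 ± 0.266 CPM with OSM and 73.7 CPM with PBS, a log2 fold change of -5.93 ± 0.37 (edgeR adjusted p = 3.7e-19), and Slco2a1 was at 434 ± 27.0 CPM against 72.5 CPM (2.68 ± 0.10, adjusted p = 6.2e-27). Of 5 receptors 2 rose and 1 fell, the last being Ptgir (-2.40 ± 0.46, named after its value was seen): Ptgfr, the prostaglandin F receptor, was at 23.9 CPM with OSM and 0.642 CPM with PBS (4.73 ± 0.54), and Ptger3 at 106 ± 20.4 and 15.4 CPM (2.96 ± 0.20).

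The OSM response and the Treg response of the members were compared as an interaction across both experiments because both additions were made to differentiating VmSC5. The response to OSM was more positive for Ptgis by 1.23 ± 0.17 on the log2 scale (edgeR adjusted p = 1.5e-07) and for Lpcat3 by 0.55 ± 0.10 (adjusted p = 1.9e-05). It was more negative for Pla2g4a by -1.87 ± 0.27 (adjusted p = 3.1e-07), for Ptgs1 by -1.39 ± 0.18 (adjusted p = 1.6e-08) and for Ptges by -0.35 ± 0.11 (adjusted p = 0.0118). The Ptges difference ended without OSM replicate 1 (adjusted p = 0.054) or PBS replicate 2 (0.0551), and Mboat7 passed without OSM replicate 3 (0.65, adjusted p = 0.0101). Ptgs2, at -2.13 ± 1.055, did not pass (adjusted p = 0.121). Of 9 tested members 2 were more positive and 3 more negative, where 14.9% of all genes were more positive and 17.6% more negative; of all calls 45.9% were more positive, or 33.7% with library totals, which moved the median of all genes by -0.131.

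The 2 control groups already differed: Ptgs1 was at 19.8 to 26.7 CPM without Treg and 71.2 to 84.4 CPM with PBS, and Lpcat3 at 824 to 882 CPM and 385 to 438 CPM. Adipoq was also lower with PBS (243 to 327 CPM) than without Treg (3298 to 3595 CPM). These controls come from separate experiments of different depth, so a response is relative to its own control, and the part of this gap in the differences between responses was not tested.

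**Figure D4:**
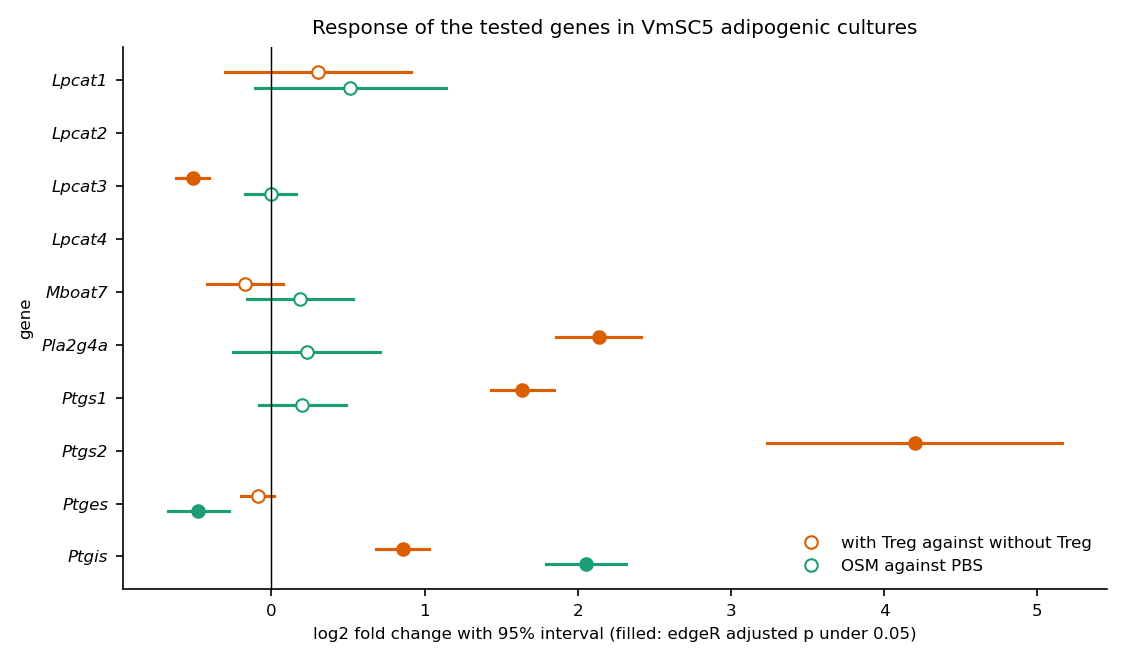
Log2 fold change of each tested member with Treg against without Treg and with OSM against PBS, with 95% intervals from the SE on a linear axis; filled points passed the edgeR test at an adjusted p under 0.05 and untested members are blank. Ptgs2, Pla2g4a and Ptgs1 lie to the right for Treg and Ptgis lies farthest to the right for OSM.

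Floating cells of DTR+ and DTR- mice, compared after toxin in both, differed in 0 of the 6 members that could be tested, with 1 at an unadjusted p under 0.05, where 0.491% of all genes were higher and 1.94% lower in DTR+. Ptgs1 was at 4.55 and 2.95 CPM in DTR- and at 0.668 and 0 CPM in DTR+, with a log2 fold change of -3.15 ± 1.14 (edgeR adjusted p = 0.169). Lpcat3 was at 166 and 144 CPM in DTR- and 132 and 189 CPM in DTR+ (0.57 ± 0.61), Ptges at 145 and 151 CPM and 118 and 203 CPM (0.67 ± 0.62), and Ptgis at 5.06 and 5.23 CPM and 1.74 and 2.32 CPM (-0.85 ± 0.82, adjusted p = 0.6125). The DTR+ libraries lay below the DTR- libraries for Ptgs1 and Ptgis and on both sides of them for Lpcat3 and Ptges. Fold changes here depend on scaling: library totals moved the median of all genes by -0.359 and called 0 genes, against 287 with TMM. Without DTR+ replicate 2, the log2 fold changes were 1.08 for Lpcat3, 1.25 for Ptges and -7.48 for Ptgs1. That fit leaves only DTR+ replicate 3, the library that stood apart, where Ptgs1 was at 0 CPM. These values therefore rest on 1 library, which is assumed there to vary like the others.

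The other 4 members were too low to test, and 3 of them had fewer counts in DTR+. Lpcat2 gave 16 counts in DTR- and 1 in DTR+, a ratio of 17.7 (counting interval 2.75 to 743), and Lpcat4 gave a ratio of 15.5 (2.36 to 655.5). Ptgs2 gave 8 counts in DTR- and 0 in DTR+, a ratio of 2.95 with DTR+ set to 3 counts. Pla2g4a had more counts in DTR+ (18 against 6), all of them in replicate 2, with 0.506 and 0.402 CPM in DTR- and 2.40 and 0 CPM in DTR+. Endothelial markers summed to 294 to 407 CPM in DTR- and 4.63 to 25.5 CPM in DTR+, macrophage markers to 340 to 415 and 99.9 to 148.5 CPM, and fibroblast markers to 587 to 1632 and 197 to 234 CPM; their part in these counts was not tested. The members' median was 0.08 beside -0.04 for all genes, and of the other pathway genes 0 of 19 and 0 of 4 passed in 2 lists and 1 of 17, Slco2a1, was lower in the third.

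In Treg, Lpcat2 was at 14.9, 10.5 and 15.1 CPM in WT (66, 35 and 59 counts) and at 59.2, 59.05 and 39.1 CPM in KO (247, 89 and 131 counts). All KO libraries were above all WT libraries. The means were 13.5 ± 2.61 and 52.5 ± 11.6 CPM (SD, n = 3), a fitted log2 fold change of 1.99. This is the value by which the genes were chosen, and it carries no test. KO replicate 1 had 63.0 CPM of macrophage markers and Foxp3 at 154 CPM. KO replicates 2 and 3 had 9.29 and 5.67 CPM of macrophage markers and Foxp3 at 359 and 316 CPM. The part of other cells in the Lpcat2 level was not tested. As a share of the summed per-kilobase level of Lpcat1 and Lpcat2, Lpcat2 was 26.3 to 33.5% in WT and 53.6 to 73.0% in KO. This share restates the Lpcat2 value by which the genes were chosen and is no separate evidence.

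**Figure D5:**
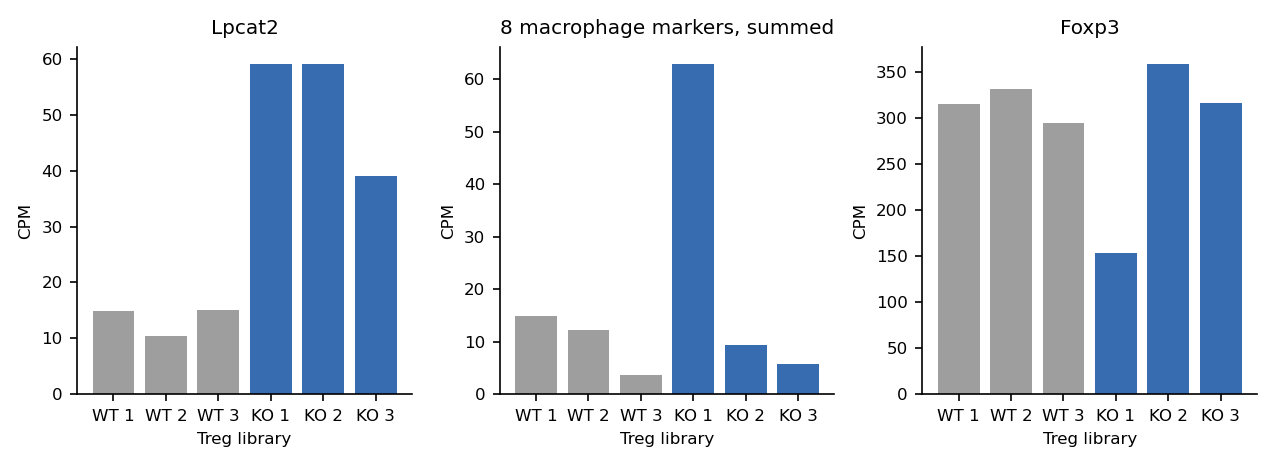
CPM of Lpcat2, of 8 macrophage markers summed and of Foxp3 in each of the 3 WT and 3 KO Treg libraries; each bar is 1 library and starts at 0. Lpcat2 is higher in all 3 KO libraries. The macrophage sum is highest, and Foxp3 lowest, in KO replicate 1, and the part of other cells in the Lpcat2 level was not tested.

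The other members that could be tested in Treg showed no called difference. Lpcat1 was at 48.7, 40.1 and 41.0 CPM in WT and 67.8, 29.9 and 46.3 CPM in KO (0.20 ± 0.28), and Lpcat4 at 16.0, 23.05 and 19.7 CPM and 6.47, 45.8 and 31.05 CPM (0.51 ± 0.55). Lpcat3 was at 88.3, 76.6 and 57.1 CPM in WT and 68.6, 68.3 and 80.3 CPM in KO (0.01 ± 0.22). The KO libraries lay on both sides of the WT libraries for Lpcat1 and Lpcat4, and for these KO replicate 1 was at the opposite end from KO replicate 2. Mboat7 had 0.18 ± 0.29 and Ptgs1 0.30 ± 0.41, and edgeR's adjusted p of the 5 genes was 0.818 to 0.995. The count was 0 of 5, with 0 at an unadjusted p under 0.05 and 0 by DESeq2, where 0.00876% of all genes were higher and 0.0438% lower. Of the 6 genes called, 1 was higher (16.7%), and of the 5 called with library totals 0 were higher (0.0%). Ptgis gave at most 5 counts in a Treg library, and of 15, 9 and 9 tested genes in the other pathway lists 0 passed.

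Over the 15 group means, on the log2(CPM + 1) scale, the members' patterns were compared with each other and with 10259 other genes as a description; the groups share libraries' depth and cell sources, and no p is given. Pla2g4a and Ptgis had a Pearson r of 0.946, Pla2g4a and Ptgs2 of 0.808 and Lpcat2 and Lpcat4 of 0.771, while Lpcat4 and Ptges had -0.883 and Lpcat1 and Lpcat3 -0.811. The genes whose patterns were most like Ptgis were Fstl1 (0.991), Fkbp10 (0.99) and Calhm5 (0.989). For Ptgs2 they were Has1 (0.94), Fndc1 (0.929) and Enpp3 (0.924), for Ptgs1 Abcg2 (0.946), Tpcn2 (0.941) and Copg1 (0.929), and for Lpcat2 Asb3 (0.956), Myl12b (0.955) and Kif5c (0.949). Lpcat2 was at 52.5 CPM in Treg KO and at 13.5 CPM in the next highest group, Treg WT. Its correlations, also that with Lpcat4, thus include the level by which the set was chosen and are no support for it.

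By the GENCODE annotation of GRCm38, Ptgs2 (chromosome 1, 150100031 to 150108227, + strand) and Pla2g4a (chromosome 1, 149829618 to 149961290, - strand) lie on the same chromosome with their 5′ ends facing each other. Ptgs1 (36230426 to 36252272, + strand), Lpcat4 (112239468 to 112247111, + strand), Ptges (30889471 to 30929863, - strand) and Ptgis (167191805 to 167240604, - strand) are on chromosome 2. Lpcat1 is on chromosome 13 (73467197 to 73516422), Lpcat2 on 8 (92855339 to 92919279) and Lpcat3 on 6 (124663027 to 124704418), all on the + strand, and Mboat7 on 7 (3677789 to 3693523, - strand). Besides Lpcat3, exon bases are shared with a gene on the opposite strand by Lpcat2 (287 with Gm45472, at most at 0.618 CPM), by Ptgs1 (148), by Ptgis (156) and with Tsen34 by Mboat7 (277), where Tsen34 was at 36.4 to 115 CPM in the VmSC4 cultures. Tsen34 was also lower after transfer, at 15.9 to 22.4 CPM in VmSC4-derived VmSC4 against 91.9 to 108.8 CPM fresh, and at 17.1 and 21.8 CPM in VmSC5-derived VmSC5 against 109.8 to 124.5 CPM fresh, in the comparisons where Mboat7 was called lower; its part in the Mboat7 counts was not tested.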

How the data were processed

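RNA was measured by low-input RNA sequencing of 1000 sorted cells, lysed culture wells or 2 ng of RNA from floating cells, per the labels' protocols. The authors deposited 1 table of raw counts per gene symbol for all 42 libraries, with 0 columns of no sample. STAR 2.7.3a, featureCounts and mm10 are named per the submitters' processing notes; the annotation release, the strand setting and the handling of shared reads are not given in the sources used here. No molecular identifiers are stated, so PCR copies can enter the counts, and each library's total (1072147 to 12514783) sets its precision.

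From these counts CPM were computed on library totals, and models were fitted with edgeR 4.0.16 in R 4.3.3. Genes were kept by filterByExpr (minimum count 10) and scaled by TMM. The robust quasi-likelihood F test was two-sided, with Benjamini-Hochberg adjustment over all genes tested and an adjusted p threshold of 0.05. Fresh and cultured groups shared a fit, its filter and its spread. Fresh and transferred groups shared another, which also gave the comparison of the fresh populations. The floating cells, Treg cultures, OSM cultures and Treg cells were each fitted alone. For their interaction the OSM and Treg cultures were fitted together. A standard error is the absolute log2 fold change over the square root of F, and a 95% interval takes the normal quantile of that SE. Ratios of low counts use exact binomial intervals, and a group at 0 was set to 3 counts over the group. Ratios to such a group leave out the counting error of the other group. Per-kilobase levels divide CPM by the union of GENCODE M21 exons. The fit was tested on simulated data. The members and lists were chosen with earlier results of these data known. Of the other pathway genes, up to 3 per list and comparison are named, those with the largest change among calls with a group mean of at least 20 CPM, apart from those said to be named after their values were seen, and the 3 nearest patterns per gene are named for Lpcat2, Ptgs1, Ptgs2 and Ptgis. Alternatives were DESeq2 1.42.0, its size factors in edgeR, no filter, the 2 groups alone, a replicate block and leaving out each library; library totals without TMM and a crossed block for floating cells were added after seeing the data.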

Additional observations from a re-analysis of the deposited data

Results flagged for a closer look

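The response to 8 days of adipogenic culture differed between VmSC5 and VmSC4 for Lpcat4, with a fitted interaction of -7.75 on the log2 scale (edgeR adjusted p = 0.0404); the VmSC5 culture was at 0 counts, so the size is no bound. This call ended with a replicate block (adjusted p = 0.05855), without any 1 culture library, without fresh VmSC5 replicate 2 or 3, and without fresh VmSC4 replicate 2 (0.0575 to 0.1325). Between the OSM and the Treg experiments on differentiating VmSC5, the response differed by an interaction test for 5 members. The OSM response minus the Treg response was 1.23 for Ptgis, 0.55 for Lpcat3, -0.35 for Ptges, -1.39 for Ptgs1 and -1.87 for Pla2g4a; the Ptges difference ended without OSM replicate 1 (adjusted p = 0.054) or PBS replicate 2 (0.0551). For Pla2g4a and Ptgs1 all 3 libraries with Treg lay above the libraries without, while OSM and PBS libraries overlapped. For Ptgis every treated library lay above its controls in both experiments, and for Ptges every treated library lay below them in CPM. With Treg the Ptges difference was not called (-0.09 ± 0.06, edgeR adjusted p = 0.202).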

How the results depend on the processing

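Counts of called members stayed within 1.5 times the main count except as follows. The cultures of VmSC5 and VmSC4 differed in 0 members, and in 1 with DESeq2 or the 2 groups alone. The difference between their culture responses called 1 member, and 0 with a replicate block, which changed no other call of a member; same-numbered libraries did not correlate above 0.1 in every pair of any comparison, so the numbers were not taken as pairs. VmSC4-derived VmSC5 against VmSC4-derived VmSC4 gave 0, then 1 with library totals, DESeq2 or no filter and 2 with the 2 groups alone, and against VmSC5-derived VmSC5 0, then 1 with DESeq2 or no filter and 2 with the 2 groups alone; the cause was not tested. Leaving out each library in turn gave 1 to 2 calls for fresh cells, 7 to 9 and 8 to 9 for VmSC4 and VmSC5 culture, 0 to 1 for their difference, 8 to 9 and 6 to 8 after transfer of VmSC4 and VmSC5, 0 to 3 for floating cells, 2 to 3 for OSM, 4 to 6 for OSM minus Treg, 5 throughout with Treg, and 0 throughout for the cultures' comparison, both VmSC4-derived VmSC5 comparisons and Treg. With library totals Mboat7 in VmSC4 culture turned from 0.53 to -0.0096. Over all genes, main counts and the range over all alternatives were 45 (17 to 215) between cultures, 379 (155 to 660) for their response difference, 247 (39 to 893) and 160 (31 to 529) for VmSC4-derived VmSC5, 287 (0 to 5370) for floating cells and 6 (0 to 586) for Treg. In floating cells the same-numbered libraries correlated at -0.397, and a crossed pairing called 1063 genes against 111 with the numbered replicate block. DESeq2 moved 4 values across the threshold to called and 1 from called, and leaving out a library 6 and 22. Members under about 10 counts per library, such as Lpcat2, Lpcat4 and Ptgs2 in cultures, are limited by depth; 53 of 150 group levels moved by more than 1 SD on TMM-scaled CPM.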

Other observations

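Some neighbouring genes of the pathway, named after their values were seen, had patterns not described above. Pla2g4c, another cytosolic phospholipase A2, was at 0 counts in the 3 cultures without Treg and at 88, 84 and 76 counts (11.1, 11.7 and 10.6 CPM) in those with Treg, at least 62.7-fold higher with 3 counts over the group as the limit. With PBS it gave 2, 5 and 2 counts and with OSM 0 in each library, a ratio of 2.53 with OSM set to 3 counts. Every library with Treg was thus above all others of these 4 groups. Tbxas1, the thromboxane synthase, rose with Treg by a log2 fold change of 1.49 ± 0.38 (edgeR adjusted p = 0.00168), from 0.460 to 2.78 CPM without to 4.16 to 5.57 CPM with Treg.

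Values of Ptgir and Hpgd in the 2 culture experiments are given here because they act on the products of Ptgis and Ptges. Ptgir, the prostacyclin receptor, was at 3.07 to 5.59 CPM without and 6.55 to 8.77 CPM with Treg, and at 12.4, 14.9 and 18.8 CPM with PBS and 2.41, 3.73 and 1.97 CPM with OSM. Its groups did not overlap in either experiment, with log2 fold changes of 0.88 ± 0.25 and -2.40 ± 0.46 (edgeR adjusted p = 0.00405 and 1.7e-05). In the OSM cultures the synthase Ptgis and its receptor therefore lay on opposite sides of their PBS levels. Hpgd was at 147 to 157 CPM without and 138 to 145 CPM with Treg, where it was not called, and at 59.7 to 87.3 CPM with PBS and 0.802 to 1.31 CPM with OSM. The receptor Ptger2 was called lower in fresh VmSC5 than in fresh VmSC4 (-2.09 ± 0.36) and in the VmSC4 culture than in fresh VmSC4 (-5.35 ± 0.83).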
